A study of Homo sapiens with 4 samples.

Results

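The 36 genes of homologous recombination and the Fanconi anaemia pathway were described across 4 RNA-seq libraries of Myla cells, a cell line from mycosis fungoides, a lymphoma of skin-homing T cells. The members were a fixed list of symbols covering the BRCA1 complex, the BCDX2 and CX3 complexes, end resection, the BLM complex, the nucleases that cut branched DNA and the Fanconi complexes, and all 36 were found among the 58735 genes of the table. In the shControl group (2 libraries, genotype WT) the cells carried a lentiviral vector with a scrambled hairpin RNA, and in the shFOXM1 group (2 libraries, genotype FOXM1 knockdown) a lentiviral vector with a hairpin against FOXM1, which belongs to the forkhead family of transcription factors. Every culture stood for 24 hours before transduction, received 10 uL of virus medium in 1 mL, had its medium changed after 24 hours and was kept for a further 72 hours before RNA was extracted. The submitters call the libraries biological replicates of 1 line. Whether the cultures were transduced separately is not stated, nor whether the shFOXM1 libraries carry the same hairpin, so p-values measure the spread between these libraries only.

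Homologous recombination repairs a broken chromosome by copying an intact sister. Nucleases trim the broken end to a protruding strand, BRCA1, PALB2 and BRCA2 help a protein filament form on it, and the filament invades the sister with the help of the BCDX2 and CX3 complexes and RAD54-type motors. The joint molecules that follow are taken apart by the BLM complex or cut by nucleases such as MUS81 with EME1. The Fanconi pathway handles crosslinks between DNA strands: its core complex is a ubiquitin ligase that marks the FANCD2 and FANCI pair, which then directs the cutting of the crosslink and its repair by recombination. These genes work mainly in S and G2 phase, when a sister is present.

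Levels are given as FPKM, a fragment count corrected for the length of the gene and a scaling factor of the library. The length is that of all annotated exons of a gene merged, so levels compare only roughly between genes. The factor was not the plain read total. Median-of-ratios factors, the median over genes of each library's ratio to the gene's mean, were equal, at 1.006 in every library. The deposited values were therefore already scaled to a common median ratio. Libraries held 14147084 and 14778639 reads in shControl and 15017728 and 14680094 in shFOXM1. FOXM1 itself was at 26.5 and 27.6 FPKM in shControl against at 9.27 and 5.59 FPKM in shFOXM1, a log2 fold change of -1.77 (SE 0.23, limma adjusted p = 0.173). FOXM1 passed the threshold without shFOXM1 1 (-2.09, adjusted p = 0.0122) and without shFOXM1 2 (-1.45, adjusted p = 0.0331), with the lone library assumed to vary like the controls. The shFOXM1 libraries differed from each other more than the shControl libraries did, with a chi-square per degree of freedom of 36.5 against 3.93, where sampling alone gives a value near 1. Of 14 T cell markers 10 were tested. TRBC2 was at 168 and 179 FPKM in shControl against 211 and 191 in shFOXM1, and IL2RA at 258 and 249 against 354 and 141. CD8A, CD28 and PTPRC were less abundant than TRBC2 and IL2RA, from 1.09 to 6.70 FPKM over all libraries. CD8A was higher in shFOXM1, with 1.30 and 1.23 FPKM in shControl against 2.27 and 1.99. CD3E, CD4, CD5 and CD7 were at or near 0 in all libraries. Of 24 markers of 4 other lineages, 18 were at 0.384 FPKM or less in every library and 6 were not: COL3A1 (24.5 and 22.7 FPKM in shControl, 45.1 and 15.9 in shFOXM1), CSF1R (12.8, 9.04, 13.5 and 8.47 in the same order), KRT10 (8.18, 9.77, 9.04 and 11.1), CDH1 (5.66, 4.48, 2.37 and 8.34), COL1A1 (2.504, 2.75, 3.23 and 4.48) and CD79A (1.73, 1.44, 0.270 and 7.38). IL2RA, COL3A1, CDH1 and CD79A lay far apart between the shFOXM1 libraries, and their part in the members' levels was not tested.

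Most members were lower in shFOXM1, by small amounts, and none passed the test. Of the 36 members, 33 reached 1 FPKM in at least 2 libraries and were tested, and RAD51B, RAD54B and FANCF did not. In the comparison of shFOXM1 with shControl, 30 of the 33 were lower by sign, against 50.1% of the 12033 genes tested. In 25 members the groups did not overlap and shFOXM1 was the lower, against 25.9% of all genes, and in 2 members, MUS81 and SLX4, it was the higher with no overlap, against 27.3% of all genes. The median log2 fold change was -0.36 for the members and -0.00075 for all genes. Because the libraries were already scaled to a common median ratio, the all-gene median near 0 and the 50.1% largely follow from that scaling. With Benjamini-Hochberg adjustment over 12033 genes in limma, 0 members and 0.0% of all genes had an adjusted p under 0.05, and the smallest adjusted p of a member was 0.176. At an unadjusted p under 0.05 there were 15 members lower, against 8.99% of all genes, and 1 higher, MUS81, against 8.82%. With shFOXM1 1 left out 19 members passed as lower, against 14.5% of all genes, and 1 as higher, against 11.3%. With shFOXM1 2 left out 4 passed as lower, against 2.95%. Members were chosen with earlier results of these data known, so these counts describe the list and test nothing about it. In bulk RNA, fewer cells in a phase and less RNA per cell cannot be told apart.

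**Figure D1:**
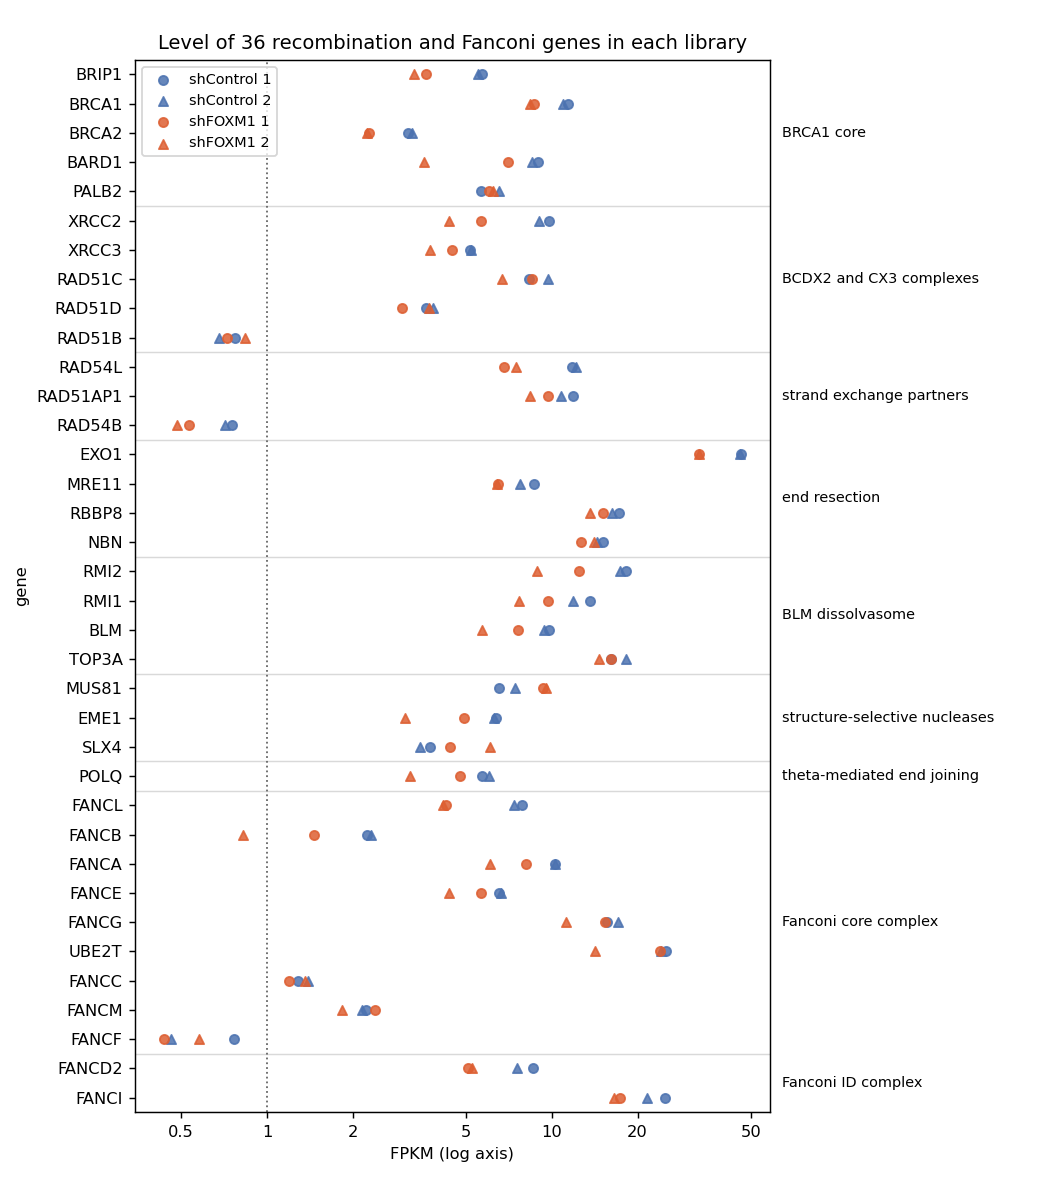
FPKM on a log axis for each of the 36 genes (rows, grouped by role) in each library, with blue points for shControl and orange points for shFOXM1 and the dotted line at 1 FPKM. EXO1 is highest, at 46.1 and 45.7 FPKM in shControl against 32.95 and 32.96 FPKM in shFOXM1, and RAD51B, RAD54B and FANCF lie left of the line in every library.

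The promoters of the members were read for 4 short motifs on either strand: the E2F element (spelled as TTTCCCG, else as TTTCGCG, else as TTTGCCG or else as TTTGGCG), the cell cycle genes homology region or CHR (TTTGAA), the CCAAT box (CCAAT) and the forkhead core (TAAACA). RefSeq promoter windows (GRCh38.p14) were matched for 32 of the 36 members. In the 250 bases before the start, the E2F element was in 15.6% of member genes and 8.86% of all genes in the RefSeq table, the CHR in 12.5 and 16.1%, the CCAAT box in 43.8 and 37.0%, and the forkhead core in 3.13 and 13.1%. With bases in annotated exons left out, the upstream stretches of 12 tested members held a motif, and 8 of these are shown. RAD54L, BRIP1, RMI1, BRCA1, FANCA and BLM had the 6 smallest unadjusted limma p-values of the 12. FANCM and PALB2 had the 2 largest. FANCL, XRCC2, EXO1 and FANCD2 also had small unadjusted p-values but hold none of the motifs in the 250 bases, so they are not shown. Each reads 5′ to 3′ toward its gene, and capitals mark the motif matches.
RAD54L, chr1:46247438-46247687, plus strand: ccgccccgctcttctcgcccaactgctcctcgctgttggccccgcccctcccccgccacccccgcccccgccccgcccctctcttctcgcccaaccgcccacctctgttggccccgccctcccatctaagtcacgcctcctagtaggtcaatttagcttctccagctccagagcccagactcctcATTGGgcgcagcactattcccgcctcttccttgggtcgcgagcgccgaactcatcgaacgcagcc
BRIP1, chr17:61863529-61863778, minus strand: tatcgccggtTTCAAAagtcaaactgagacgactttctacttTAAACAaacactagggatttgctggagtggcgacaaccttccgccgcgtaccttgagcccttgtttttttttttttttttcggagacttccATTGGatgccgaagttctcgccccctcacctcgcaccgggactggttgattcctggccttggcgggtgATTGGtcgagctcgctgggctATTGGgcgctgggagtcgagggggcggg
RMI1, chr9:83980270-83980358, plus strand: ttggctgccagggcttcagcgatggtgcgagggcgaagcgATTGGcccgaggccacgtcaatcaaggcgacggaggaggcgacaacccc
BRCA1, chr17:43125484-43125609, minus strand: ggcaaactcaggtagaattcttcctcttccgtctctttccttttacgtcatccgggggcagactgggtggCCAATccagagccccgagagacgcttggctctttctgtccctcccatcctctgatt
FANCA, chr16:89816658-89816897, minus strand: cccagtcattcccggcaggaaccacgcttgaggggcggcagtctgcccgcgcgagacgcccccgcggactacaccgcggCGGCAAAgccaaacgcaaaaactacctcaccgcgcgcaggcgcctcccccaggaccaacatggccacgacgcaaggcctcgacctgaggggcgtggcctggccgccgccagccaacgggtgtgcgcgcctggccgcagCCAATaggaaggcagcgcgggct
BLM, chr15:90717142-90717326, plus strand: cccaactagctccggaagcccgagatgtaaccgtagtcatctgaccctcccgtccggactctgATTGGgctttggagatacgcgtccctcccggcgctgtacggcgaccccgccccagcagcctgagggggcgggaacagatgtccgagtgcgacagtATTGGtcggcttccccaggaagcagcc
FANCM, chr14:45135680-45135929, plus strand: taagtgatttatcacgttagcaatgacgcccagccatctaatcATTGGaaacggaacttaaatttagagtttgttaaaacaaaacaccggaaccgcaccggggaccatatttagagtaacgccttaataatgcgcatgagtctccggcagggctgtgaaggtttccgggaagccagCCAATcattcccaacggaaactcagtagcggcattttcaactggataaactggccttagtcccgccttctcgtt
PALB2, chr16:23641311-23641391, minus strand: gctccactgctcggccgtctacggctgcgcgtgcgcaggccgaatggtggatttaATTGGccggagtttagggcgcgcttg

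All these stretches hold a CCAAT box, written ATTGG where it lies on the other strand. In BRIP1 it occurs 3 times, at 117, 49 and 28 bases before the start, and BRIP1 also holds the CHR (as TTCAAA, 240 bases before the start) and the single forkhead core found among the members, 208 bases before the start. FANCA holds an E2F element (as CGGCAAA) 171 bases before its start. Starts are those of RefSeq. For the windows shown of BRIP1, RMI1 and FANCM, the 50 bases after the start were in no GENCODE v29 transcript of the gene. Another RMI1 window, whose 50 bases were found, holds an E2F element 31 bases before its start and no CCAAT box. FANCM and PALB2, whose levels hardly differed between the groups, hold CCAAT boxes as well. Only stretches with a motif were shown, so what these stretches share says nothing about the levels. The median log2 fold change was -0.35 for the 13 tested members with a CCAAT box and -0.36 for the 17 without. It was -0.45 for the 4 tested members with an E2F element and -0.35 for the 26 without. A match describes the letters in this window only.

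The BRCA1 complex was lower in shFOXM1 with no overlap in 4 of 5 members, against 25.9% of all genes. BRCA1 (chromosome 17: 43044295 to 43170245 on GRCh38), the ubiquitin ligase that starts recombination at a break, was at 11.4 and 11.0 FPKM in shControl against 8.68 and 8.36 in shFOXM1. The groups did not overlap, and the log2 fold change was -0.35 (SE 0.11, adjusted p = 0.229). BARD1, its obligate partner, was at 8.91 and 8.50 FPKM in shControl, and the shFOXM1 libraries split, with 7.02 in shFOXM1 1 and 3.56 in shFOXM1 2. BARD1 had the largest SE of any member (log2 fold change -0.68, SE 0.28, adjusted p = 0.307). BRCA2, which loads the filament, was at 3.13 and 3.22 FPKM in shControl against 2.27 and 2.25 in shFOXM1 (log2 fold change -0.36, adjusted p = 0.265). BRIP1, a BRCA1-bound helicase also known as FANCJ, was at 5.68 and 5.49 FPKM in shControl against 3.62 and 3.28 in shFOXM1 (log2 fold change -0.57, SE 0.12, adjusted p = 0.184). BRCA1, BRCA2 and BRIP1 were lower with no overlap and with close replicates. PALB2, which joins BRCA1 to BRCA2, was at 5.64 and 6.54 FPKM in shControl against 6.01 and 6.19 in shFOXM1. Its shFOXM1 values lay between its shControl values, and its log2 fold change was 0.00 (SE 0.13, adjusted p = 0.991).

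Among the members of the BCDX2 and CX3 complexes, which stabilise the filament, XRCC2 stood furthest below its control. XRCC2 (chromosome 7: 152644779 to 152676165) was at 9.76 and 9.02 FPKM in shControl against 5.65 and 4.34 in shFOXM1. That is 53.2% of the shControl mean (log2 fold change -0.80, SE 0.15, adjusted p = 0.183). It was the most negative log2 fold change of the members with 1 added to FPKM, while with 0.1 added FANCB was further down, at -0.98 against -0.91 for XRCC2. XRCC3, which pairs with RAD51C, was at 5.17 and 5.22 FPKM in shControl against 4.45 and 3.74 in shFOXM1 (log2 fold change -0.29, adjusted p = 0.342). RAD51C and RAD51D overlapped between the groups. RAD51C was at 8.33 and 9.73 FPKM in shControl against 8.51 and 6.66 in shFOXM1, and RAD51D, the partner of XRCC2, at 3.60 and 3.82 FPKM and at 2.98 and 3.69 FPKM. Their adjusted p-values were 0.499 and 0.685. RAD51B was at 0.773 and 0.680 FPKM in shControl against 0.723 and 0.834 in shFOXM1, from 75 to 95 reads, and was not tested.

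The partners of strand exchange were led by RAD54L, the motor protein that drives strand invasion (chromosome 1: 46247688 to 46278473). RAD54L was at 11.8 and 12.2 FPKM in shControl against 6.77 and 7.48 in shFOXM1, 59.5% of the shControl mean. The shFOXM1 libraries were close to each other, and the log2 fold change was -0.68 (SE 0.12, adjusted p = 0.176). RAD51AP1, which binds DNA and stimulates strand invasion, was at 11.8 and 10.8 FPKM in shControl against 9.69 and 8.39 in shFOXM1 (log2 fold change -0.30, adjusted p = 0.321). RAD54B, a relative of RAD54L, was at 0.756 and 0.714 FPKM in shControl against 0.534 and 0.482 in shFOXM1, from 57 reads at most. Its groups did not overlap either, but it lay under the filter and was not tested.

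All 4 end resection genes were lower in shFOXM1 with no overlap, against 25.9% of all genes. EXO1, the exonuclease that trims the end over long distances (chromosome 1: 241847967 to 241895148), was the most abundant member, at 46.1 and 45.7 FPKM in shControl against 32.95 and 32.96 in shFOXM1. Its replicates nearly coincided in both groups, and the log2 fold change was -0.47 (SE 0.10, adjusted p = 0.183). MRE11, the nuclease that starts trimming, was at 8.68 and 7.76 FPKM in shControl against 6.45 and 6.40 in shFOXM1 (log2 fold change -0.31, adjusted p = 0.281). RBBP8, also called CtIP and the activator of MRE11, was at 17.2 and 16.3 FPKM in shControl against 15.2 and 13.6 in shFOXM1. NBN, which anchors MRE11 at breaks, was at 15.1 and 14.4 FPKM in shControl against 12.7 and 14.1 in shFOXM1. The log2 fold changes of RBBP8 and NBN were -0.21 and -0.13, each with an SE of 0.12, with adjusted p-values of 0.408 and 0.581.

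The BLM complex dissolves joined chromosomes without crossing over. Its helicase and both RMI subunits were lower in shFOXM1 with no overlap, against 25.9% of all genes. The topoisomerase was lower by sign only. RMI2 was at 18.2 and 17.3 FPKM in shControl against 12.5 and 8.89 in shFOXM1, and RMI1 at 13.6 and 11.9 and at 9.69 and 7.67 FPKM. Their log2 fold changes were -0.70 (SE 0.18, adjusted p = 0.196) and -0.51 (SE 0.16, adjusted p = 0.227). BLM, the helicase mutated in Bloom syndrome, was at 9.81 and 9.40 FPKM in shControl against 7.62 and 5.69 in shFOXM1 (log2 fold change -0.48, adjusted p = 0.244). All 3 were lower in shFOXM1 2 than in shFOXM1 1. TOP3A, the topoisomerase, was at 16.1 and 18.2 FPKM in shControl against 16.1 and 14.6 in shFOXM1, overlapping between the groups (log2 fold change -0.15, adjusted p = 0.571).

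The nucleases that cut branched DNA held MUS81 and SLX4, the members that were higher in shFOXM1 with no overlap. MUS81, the catalytic subunit (chromosome 11: 65857126 to 65867653), was at 6.50 and 7.45 FPKM in shControl against 9.30 and 9.50 in shFOXM1, 135% of the shControl mean. Its partner EME1, the non-catalytic subunit, differed the other way, with 6.37 and 6.26 FPKM in shControl against 4.92 and 3.05 in shFOXM1. Neither pair of groups overlapped. The log2 fold changes were 0.39 for MUS81 (SE 0.12, adjusted p = 0.236) and -0.58 for EME1 (SE 0.21, adjusted p = 0.263). SLX4, the scaffold that holds MUS81 and other nucleases and is also FANCP, was at 3.75 and 3.46 FPKM in shControl against 4.38 and 6.09 in shFOXM1 (log2 fold change 0.43, SE 0.18, adjusted p = 0.306). SLX4 was higher in both shFOXM1 libraries and highest in shFOXM1 2. POLQ, the polymerase of an alternative end joining route used when recombination fails, was at 5.69 and 6.02 FPKM in shControl against 4.77 and 3.18 in shFOXM1 (log2 fold change -0.48, adjusted p = 0.290).

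Of the 9 members grouped as the Fanconi core complex, among them its partner enzyme UBE2T, 8 were tested. All 8 were lower by sign, against 50.1% of all genes, and 6 lower with no overlap, against 25.9%. FANCL, the subunit that carries the ligase activity (chromosome 2: 58159243 to 58241372), was at 7.86 and 7.36 FPKM in shControl against 4.26 and 4.16 in shFOXM1, 55.3% of the shControl mean. Its replicates were close, and it had the smallest adjusted p of the members (log2 fold change -0.72, SE 0.12, adjusted p = 0.176). FANCB, which sits beside FANCL in the catalytic module, was at 2.24 and 2.32 FPKM in shControl, 1.47 in shFOXM1 1 and 0.822 in shFOXM1 2, from 114, 123, 78 and 45 reads, and its mean was 50.2% of the shControl mean. FANCB was the only tested member under 1 FPKM in any library, so its log2 fold change of -0.63 (adjusted p = 0.239) is pulled toward 0 by the added 1. FANCA, the subunit most often mutated in Fanconi anaemia, was at 10.3 FPKM in both shControl libraries and at 8.11 and 6.06 in shFOXM1 (log2 fold change -0.49, adjusted p = 0.240). FANCE, which contacts FANCD2, was at 6.54 and 6.62 FPKM in shControl against 5.65 and 4.34 in shFOXM1 (log2 fold change -0.35, adjusted p = 0.321). In these members shFOXM1 2 lay below shFOXM1 1.

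FANCG and UBE2T differed from shControl mainly in 1 library. FANCG, which binds FANCA, was at 15.7 and 17.05 FPKM in shControl, 15.4 in shFOXM1 1 and 11.2 in shFOXM1 2. UBE2T, the ubiquitin-conjugating enzyme that works with FANCL, was at 25.2 and 24.2 FPKM in shControl, 23.9 in shFOXM1 1 and 14.2 in shFOXM1 2. The shFOXM1 1 level was 93.9% of the shControl mean for FANCG and 96.6% for UBE2T, and the shFOXM1 2 level 68.4 and 57.5%. Their adjusted p-values were 0.427 and 0.444. FANCC and FANCM overlapped, FANCC at 1.28 and 1.40 against 1.19 and 1.36 FPKM and FANCM, the motor that brings the complex to DNA, at 2.22 and 2.15 against 2.39 and 1.84 FPKM. Both had a log2 fold change of -0.039 (SE 0.16). FANCF was at 0.764 and 0.459 FPKM in shControl against 0.435 and 0.578 in shFOXM1, from 19 to 32 reads, and was not tested.

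Both members of the pair that the core complex marks were lower with no overlap, against 25.9% of all genes. FANCD2 (chromosome 3: 10026414 to 10101930) was at 8.55 and 7.55 FPKM in shControl against 5.06 and 5.24 in shFOXM1, 63.9% of the shControl mean (log2 fold change -0.56, SE 0.12, adjusted p = 0.187). FANCI (chromosome 15: 89243949 to 89317261) was at 24.9 and 21.6 FPKM in shControl against 17.4 and 16.5 in shFOXM1, 72.7% of the shControl mean (log2 fold change -0.44, SE 0.12, adjusted p = 0.213). In both genes the shFOXM1 libraries were closer to each other than the shControl libraries were. FANCI was the more abundant of the pair in all libraries.

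**Figure D2:**
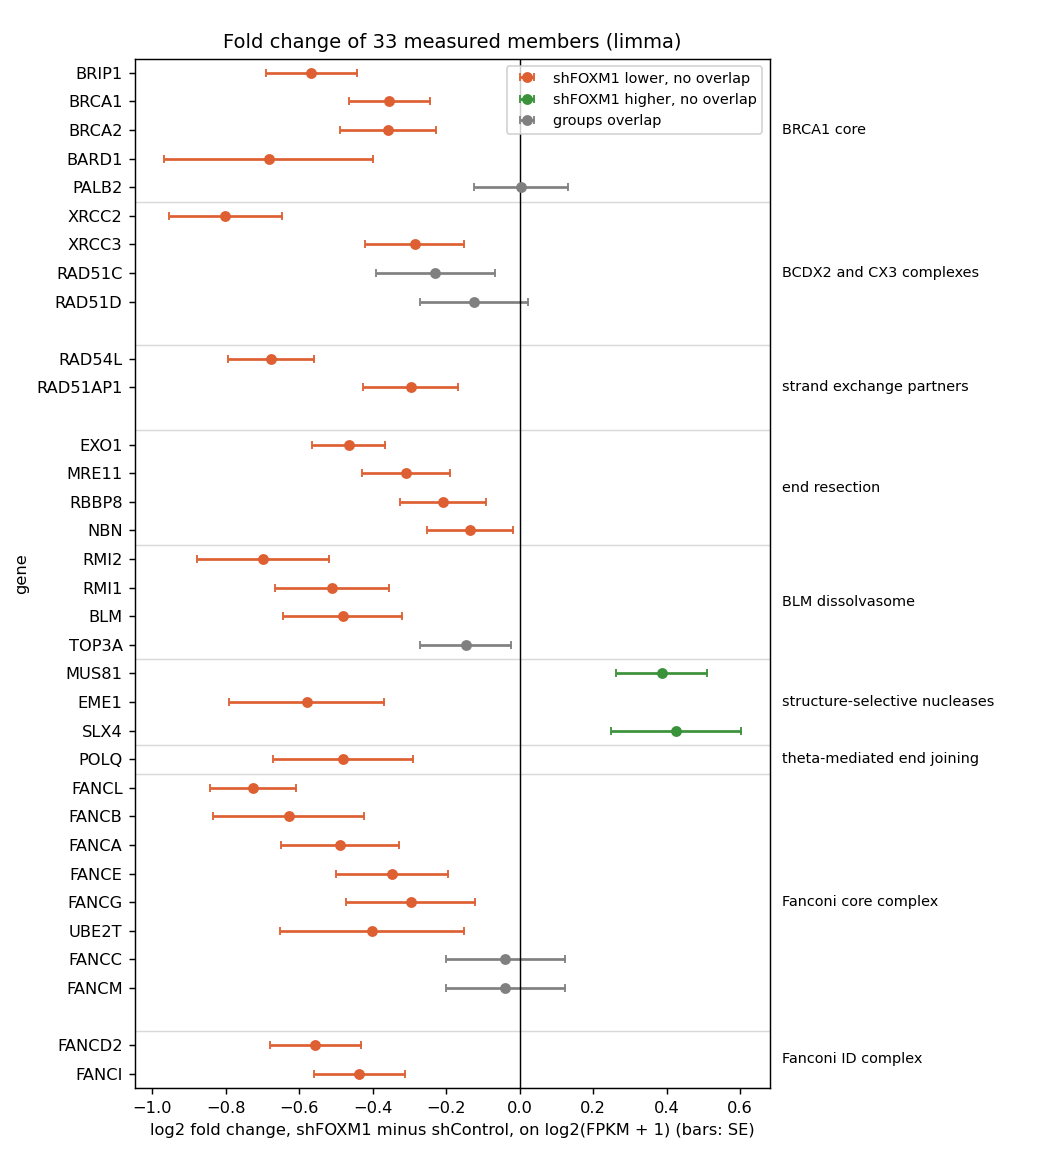
Log2 fold change (shFOXM1 minus shControl, on log2(FPKM + 1)) of the 33 tested members by role, with bars of 1 SE from limma. Orange points are members lower with no overlap, green points are MUS81 and SLX4, higher with no overlap, and grey points are the 6 members whose groups overlap.

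The shFOXM1 libraries agreed for some members and parted for others. Against the shControl mean, the members' median was -0.28 on the log2 scale in shFOXM1 1 and -0.47 in shFOXM1 2, and FOXM1 was also lower in shFOXM1 2. The library total implied by the FPKM differed from the recovered reads by -1.44% in shFOXM1 1 and 3.80% in shFOXM1 2. That places shFOXM1 2 lower against shFOXM1 1 than scaling to reads would. The part of this scaling in the gap was not tested. Of the 33 tested members 24 were lower in shFOXM1 2 than in shFOXM1 1 (72.7%, against 53.3% of all genes). RAD54L, FANCL, EXO1, FANCD2, BRCA1 and BRCA2 were at similar levels in both. BARD1 (80.6 and 40.9% of the shControl mean), UBE2T (96.6 and 57.5%) and EME1 (77.9 and 48.3%) were far apart.

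The library left out decided how many members passed the test, with the remaining shFOXM1 library assumed to vary like the shControl libraries. Without shFOXM1 1, 19 members were lower at an adjusted p under 0.05, against 14.5% of all genes, and SLX4 was higher, against 11.3% of all genes (log2 fold change 0.62, adjusted p = 0.0262). The 4 with the smallest adjusted p were BARD1 (-1.09, adjusted p = 0.0122), RMI2 (-0.92, adjusted p = 0.0127), XRCC2 (-0.96, adjusted p = 0.0133) and UBE2T (-0.76, adjusted p = 0.0133). The rest were EME1, FANCA, FANCL, BLM, RAD54L, EXO1, POLQ, BRIP1, RMI1, FANCG, FANCE, FANCB, FANCD2, BRCA1 and FANCI, with adjusted p-values up to 0.0462. Without shFOXM1 2, 4 members were lower, against 2.95% of all genes: RAD54L (-0.74, adjusted p = 0.0406), FANCL (-0.71, adjusted p = 0.0460), EXO1 (-0.47, adjusted p = 0.0471) and XRCC2 (-0.64, adjusted p = 0.0479). RAD54L, FANCL, EXO1 and XRCC2 were also among the 19. Without either shControl library 0 members passed. With reads recovered from FPKM and libraries weighted by quality in voom, 0 members passed and 0.0748% of all genes were lower.

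**Figure D3:**
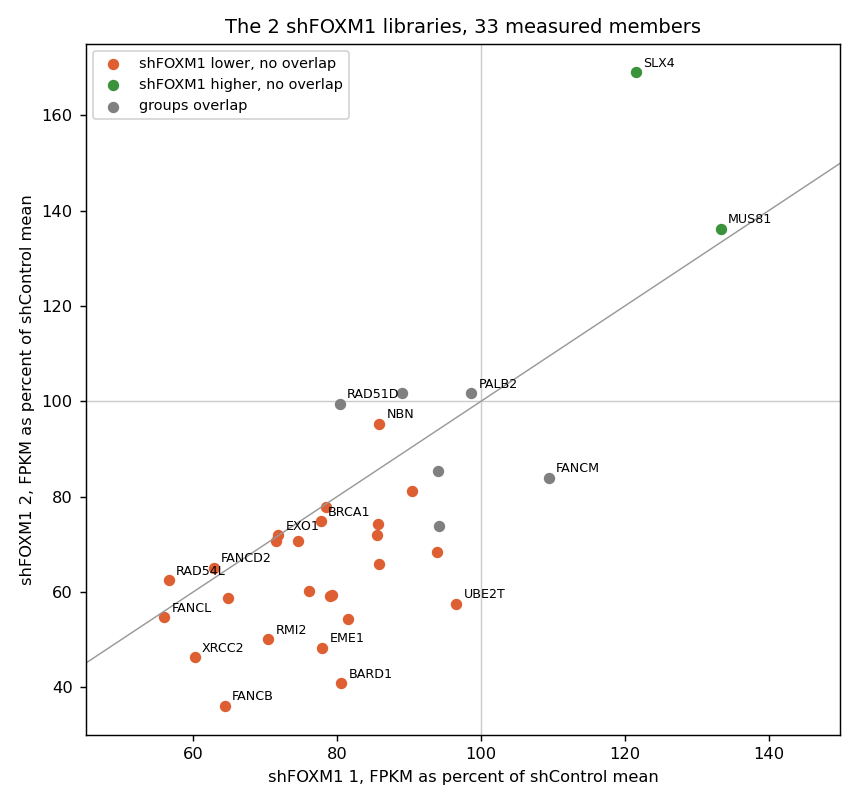
Each of the 33 tested members by its FPKM in shFOXM1 1 (x axis) and shFOXM1 2 (y axis), each as a percent of the shControl mean, with the diagonal where the libraries are equal. EXO1, RAD54L, FANCL and FANCD2 lie near the diagonal, while BARD1 (80.6 and 40.9%) and UBE2T (96.6 and 57.5%) lie far below it and SLX4 lies above it.

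Some members share exons with a neighbouring gene, and the sources used here do not give how shared bases and strand were counted. In GENCODE v29, 18 of the 36 members share exonic bases with another gene, 8 of them over 10% of their length. XRCC3 shares 76.7% of its exonic bases with KLC1 on the opposite strand, and KLC1 was at 3.20 and 3.48 FPKM in shControl against 4.02 and 4.08 in shFOXM1, higher where XRCC3 was lower. RAD54B, described next, and FANCF (11.3% with GAS2) were not tested. FANCA shares 23.6% with ZNF276, at 7.98 and 10.9 FPKM in shControl against 9.11 and 7.50 in shFOXM1. RAD54L shares 25.1% with LRRC41, at 12.5 and 12.9 FPKM in shControl against 13.4 and 19.5 in shFOXM1. MUS81 shares 13.9% with CFL1, at 88.1 and 91.4 FPKM in shControl against 94.7 and 88.9 in shFOXM1. FANCL shares 18.7% with VRK2, at 5.23 and 5.36 FPKM in shControl against 5.17 and 3.77 in shFOXM1, and EME1 16.4% with LRRC59, at 42.0 and 46.8 FPKM and at 48.8 and 32.5 FPKM. The part of these neighbours in the members' values was not tested. The 17 tested members with no shared exon were all lower by sign, 14 of them with no overlap. Their median log2 fold change was -0.40. Of the 6 tested members with over 10% shared, 5 were lower, all 5 with no overlap, and the median was -0.53. Over all genes 50.1% were lower by sign and 25.9% lower with no overlap.

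RAD54B shares 59.1% of its exonic bases with FSBP on the same strand, and FSBP was listed at 0 in all libraries. Among the 36 members and 47 further genes of the pathways, 4 share over 50% on the same strand: RAD54B, RAD50, RTEL1 and CENPS, named here after their values were seen. Their mean shControl levels ran from 0.380 to 1.01 FPKM with a median of 0.733, against a median of 7.61 FPKM (0.612 to 61.6) for the other 79 genes. The part of the shared exons in these low levels was not tested.

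**Figure D4:**
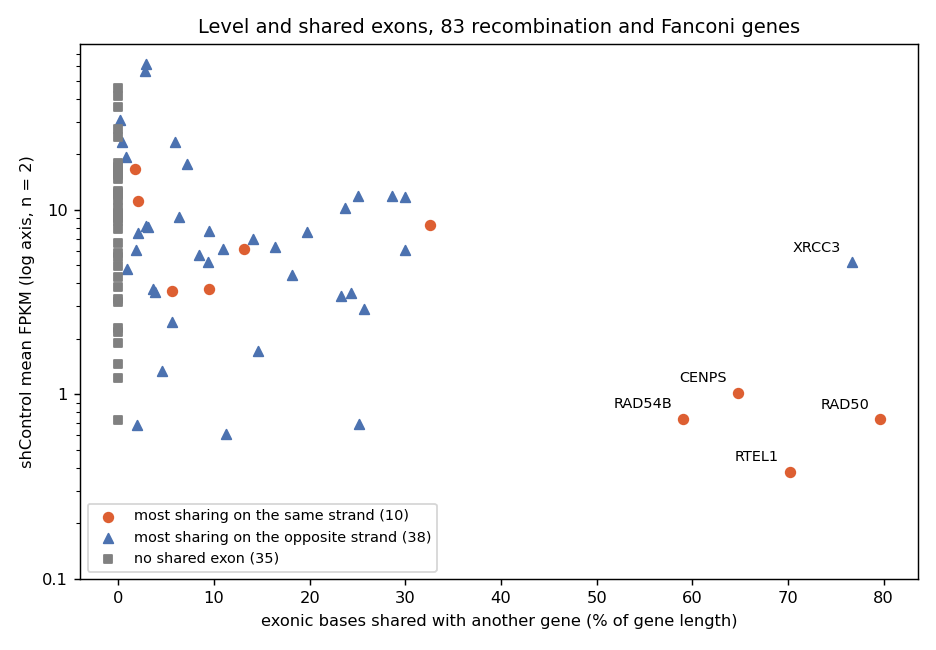
Mean shControl FPKM (log axis, n = 2) of 83 recombination and Fanconi genes against the percent of their exonic bases that another gene shares, with orange circles for sharing mostly on the same strand, blue triangles for the opposite strand and grey squares for none. The 4 genes over 50% on the same strand lie between 0.380 and 1.01 FPKM, while XRCC3, with 76.7% on the opposite strand, lies at 5.20 FPKM.

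Of 47 further genes of these pathways 43 were tested, 27 lower and 16 higher by sign, and 0 passed the test. With no overlap 18 were lower (41.9%, against 25.9% of all genes) and 9 higher (20.9%, against 27.3%). At an unadjusted p under 0.05, 5 were lower (11.6%, against 8.99%) and 3 higher (6.98%, against 8.82%), shares near those of all genes. Their median log2 fold change was -0.093. TONSL, which guards new DNA at stalled forks, was at 19.3 and 19.5 FPKM in shControl against 13.8 and 12.8 in shFOXM1, and DNA2, a resection nuclease, at 12.6 and 12.3 and at 9.08 and 8.95 FPKM. USP1, which removes ubiquitin from FANCD2, was at 42.3 and 40.2 FPKM in shControl against 33.1 and 28.8 in shFOXM1. EME2, the alternative partner of MUS81, was higher with MUS81 and opposite to EME1, at 12.6 and 11.0 FPKM in shControl against 17.9 and 23.8 in shFOXM1 (log2 fold change 0.76, adjusted p = 0.188), and it shares 30% of its exonic bases with SPSB3 on the opposite strand. MCM8, a helicase of recombination, was at 10.2 and 10.3 FPKM in shControl against 8.11 and 6.17 in shFOXM1, and C1orf112 at 3.50 and 3.33 and at 2.59 and 2.17 FPKM. Both were lower with no overlap. In shFOXM1 2 alone, the log2 difference from the shControl mean was -0.56 for TONSL, 0.96 for EME2 and -0.43 for DNA2. It was -0.50 for USP1, -0.65 for MCM8 and -0.48 for C1orf112. These genes were named for their small unadjusted p in the same libraries.

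Genes of replication and of cycling cells were mostly lower as well. Of 39 genes of replication origins and forks, 3 of which are also among the 47, 36 were lower by sign and 33 lower with no overlap (84.6%, against 25.9% of all genes), and their log2 fold changes had a median of -0.50. Of 12 genes of cell cycle state 12 were lower by sign and 11 with no overlap (91.7%), with a median of -0.72 and a summed level of 783 and 778 FPKM in shControl against 509 and 440 in shFOXM1. The lists are not separate, since PCNA is in both. It was the most abundant gene of that sum, at 262 and 261 FPKM in shControl against 189 and 168 in shFOXM1. MKI67, the proliferation marker, was at 44.99 and 45.3 FPKM in shControl against 31.5 and 25.2 in shFOXM1. The part of fewer cycling cells in the members' levels was not tested. Non-homologous end joining, the route that needs no sister, had 9 of 13 tested genes lower by sign and a median of -0.14. With no overlap 6 were lower (46.2%, against 25.9% of all genes) and 3 higher (23.1%, against 27.3%). LIG4, its ligase, was at 5.51 and 5.73 FPKM in shControl against 8.29 and 9.39 in shFOXM1 (log2 fold change 0.57, adjusted p = 0.183).

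**Figure D5:**
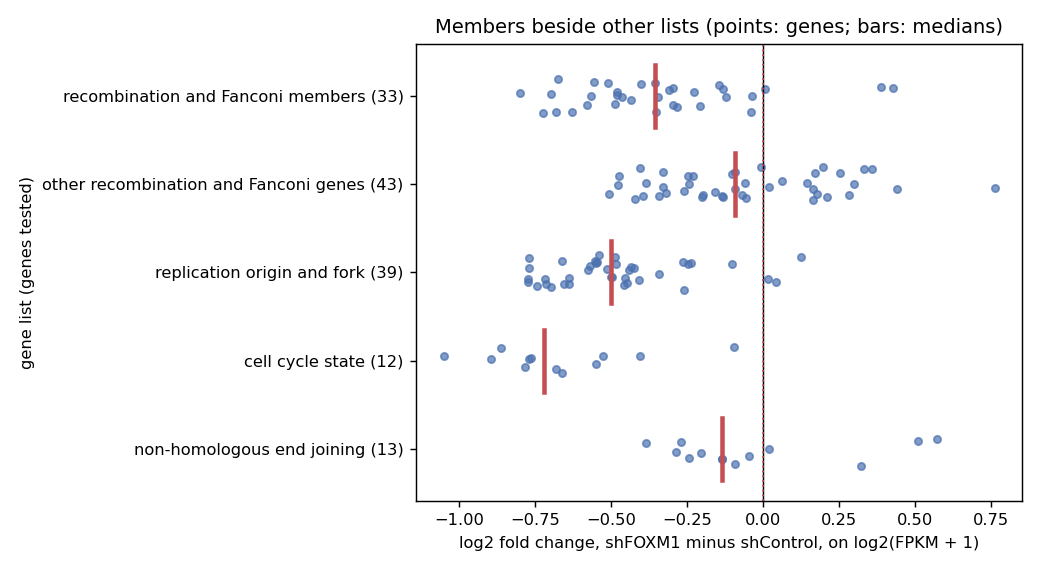
Log2 fold change of each tested gene (points) and the median (red bar) for the members, the further genes of the pathways, replication origins and forks, cell cycle state and non-homologous end joining, with the number of genes tested in brackets. The medians are -0.36, -0.093, -0.50, -0.72 and -0.14, and the dotted line marks the median of all genes.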

How the data were processed

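The authors deposited 1 table of FPKM for 58735 genes in 4 libraries, with gene lengths in bases, per the file headers. The builds in the submitters' processing notes, GRCm38 and mm10, are of the mouse, but all gene identifiers are those of human GENCODE v29 and 58724 of the 58735 genes have its start, end and merged exon length. The sources used here do not give the aligner or counter. FPKM times length gave whole reads (within 0.001 read) for 100% of values, and chi-square was taken over genes with at least 20 reads in a pair. There were 0 columns of other samples.

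The test was limma 3.58.1 (R 4.3.3), two-sided, on log2(FPKM + 1) of the 12033 genes that reached 1 FPKM in 2 or more libraries, with a mean-variance trend and Benjamini-Hochberg adjustment over all of them (threshold 0.05). It was first run on simulated data with equal spread in all libraries and larger changes than the members showed. That run therefore does not show how the test performs on these libraries. Fold changes are on that scale, which understates changes of low genes. An exact permutation test of 2 against 2 cannot go below p = 0.333, so none was used. Tables and plots used Python 3.11.15, numpy 2.4.6, pandas 2.3.3 and matplotlib 3.10.9. Promoters came from RefSeq (GRCh38.p14). All members were named; of other pathway genes, the 6 with the smallest unadjusted p. Members and lists were chosen with earlier results of these data known. Alternatives changed the pseudocount, filter, scaling, model and libraries. A gene of the pathways is not reported here.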

Additional observations from a re-analysis of the deposited data

How the results depend on the processing

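The direction of the list held under every setting tried: the members' median log2 fold change stayed between -0.47 and -0.28, and the number lower by sign between 22 (mean of at least 5 FPKM, which tests fewer genes) and 32 (no filter). Calls depended on the libraries. Leaving out 1 library at a time gave 0 to 19 members called lower and 0 to 1 higher, 0 to 1744 genes lower and 0 to 1360 higher over the table, and a median between -0.47 and -0.28; the cause was not tested. In voom with library weights 9 genes were called lower and 17 higher, and 0 members. PALB2 turned to -0.00267 under quantile normalization and ranged from -0.087 to 0.096 with 1 library left out. It was -0.087 without shControl 1 and -0.014 without shFOXM1 2. FANCC ranged from -0.093 to 0.015 (without shFOXM1 1) and FANCM from -0.17 to 0.090 (without shFOXM1 2) in the same way. In the fit with the replicate number as a block 0 genes and 0 members were called and the median was -0.36; samples sharing a number had deviations correlated at 0.0421 over 12033 genes (2 pairs), so the number was not taken as a pairing. Of the values of single genes under all settings, 593 kept direction and side of the threshold, 32 newly passed it and 5 reversed. Part of the 593 was fixed in advance. Changing the filter, the variance model or the replicate block cannot alter the fold change of a single gene. Median-of-ratios factors were 1.006 in every library, so that scaling hardly moved it either. Rescaling FPKM to recovered read totals, chosen after seeing the data, gave a median of -0.35. RAD51B, RAD54B and FANCF, with at most 95 reads in any library, were not tested, and FANCB rests on 78 and 45 reads in shFOXM1.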
